A study of Solanum lycopersicum with 12 samples.

Results

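Ethylene synthesis was followed through 10 tomato loci listed as 1-aminocyclopropane-1-carboxylic acid (ACC) synthases (ACS) and ACC oxidases (ACO). They were matched to the count table by locus identifier alone, but were chosen with earlier results of these data known. Of the 10 loci, 8 had a row among the 34075 genes of the table, 7 had at least 1 count and 6 had enough counts to be tested. Solyc08g081540 and Solyc08g008100 matched no row and were not analysed here. The RNA came from leaves of tomato (Solanum lycopersicum) cv. Micro Tom, a dwarf cultivar, grown for 3 weeks before the stimuli and sampled 48 h after them. Plants of US received ultrasound through air (30 kHz, 120 W, 5 min) from a head at an average distance of 6 cm. Plants of D were irrigated with 10 ml of 20% polyethylene glycol (PEG 6000), an osmoticum that withholds water from the roots. In US + D the same PEG solution was given directly after ultrasound, and C received neither stimulus. All 12 libraries were made from poly-A RNA, 3 for each of the 4 groups, and the study's methods call them biological replicates.

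Ethylene is a gaseous hormone of fruit ripening, senescence, wounding and water stress. ACS converts S-adenosylmethionine to ACC and is usually the rate-limiting step. ACO then oxidises ACC to ethylene. Both enzymes are encoded by small gene families whose members are switched on in different organs and by different stimuli, and ACS2 is best known in tomato for its rise in ripening fruit.

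Only Solyc01g095080 carried a name in the sources used here, i.e., ACS2. For the others the family could be read only from the chromosomes on which RefSeq (SLM_r2.1), which holds no Solyc identifiers, places its 16 named ACS and ACO genes. All of its genes of these families on chromosomes 5 and 8 are synthases and all of those on chromosomes 7 and 12 are oxidases. By this reasoning Solyc08g081550 and Solyc05g050010 were described as synthases. Solyc07g049530, Solyc07g049550, Solyc07g026650 and Solyc12g005940 were described as oxidases. RefSeq places both kinds on chromosome 2, so Solyc02g081190 was given no family.

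The loci lie apart on the SL4.0 genome, except for a pair on chromosome 7. ACS2 was counted on chromosome 1 from 78715089 to 78718062 (minus strand), and Solyc08g081550 on chromosome 8 from 62692950 to 62695631 (minus strand). Solyc02g081190 lies on chromosome 2 from 43237037 to 43238746 (plus strand), and Solyc12g005940 on chromosome 12 from 572695 to 575343 (minus strand). Solyc07g049530 (59747966 to 59750137) and Solyc07g049550 (59763906 to 59765941) lie on the plus strand of chromosome 7, 13769 bp apart, with 1 gene between them. No counted span of the 8 loci overlapped another gene of the table. How reads shared by near-identical copies were counted is not given in the sources used here, so the split of reads between related loci is uncertain.

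The libraries held between 33640280 and 106829565 counts, with medians of 41433414 in US, 37937163 in D, 39143316 in US + D and 99000486 in C. Levels are given in CPM (counts-per-million) with TMM-scaled library sizes, and a count of 0 allows up to 3 counts, i.e., 0.0275 to 0.0877 CPM, for counting error only. The leaf list (Rubisco small subunits and Rubisco activase) summed to between 5812 and 29212 CPM in every library. Of the 2 loci listed for fruit ripening, the one listed as polygalacturonase was at 0 in 10 of the 12 libraries and reached no more than 0.0228 CPM, whereas Solyc09g089580 was present in every library, with 20.7 to 96.8 CPM. The 2 floral loci summed to at most 5.17 CPM.

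In leaves, most counts of the 8 loci came from 2 abundant ones. Per kb of counted span, introns included, Solyc02g081190 averaged 157 ± 48.6 CPM over the 12 libraries (SD) and Solyc07g049530 averaged 152 CPM per kb, both above 98.4% of the 22157 genes tested. Together they held between 90.1% and 97.2% of the counts of the 8 loci in each library. Their order was not stable, since the level per kb of Solyc07g049530 was between 0.109 and 2.64 times that of Solyc02g081190. Solyc07g049550 (7.09 CPM per kb) and Solyc08g081550 (6.72 CPM per kb) followed, and their order also changed between libraries. Solyc12g005940 averaged 0.951 CPM per kb and stayed under both of them in each of the 12 libraries. ACS2 was last of the tested loci, with 0.0744 CPM per kb, a level above only 1.39% of the genes tested. Solyc05g050010 had only 2 counts in US replicate 1 and 2 in US + D replicate 2, under the floor of 3, and Solyc07g026650 had 0 counts in all 12 libraries.

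**Figure D1:**
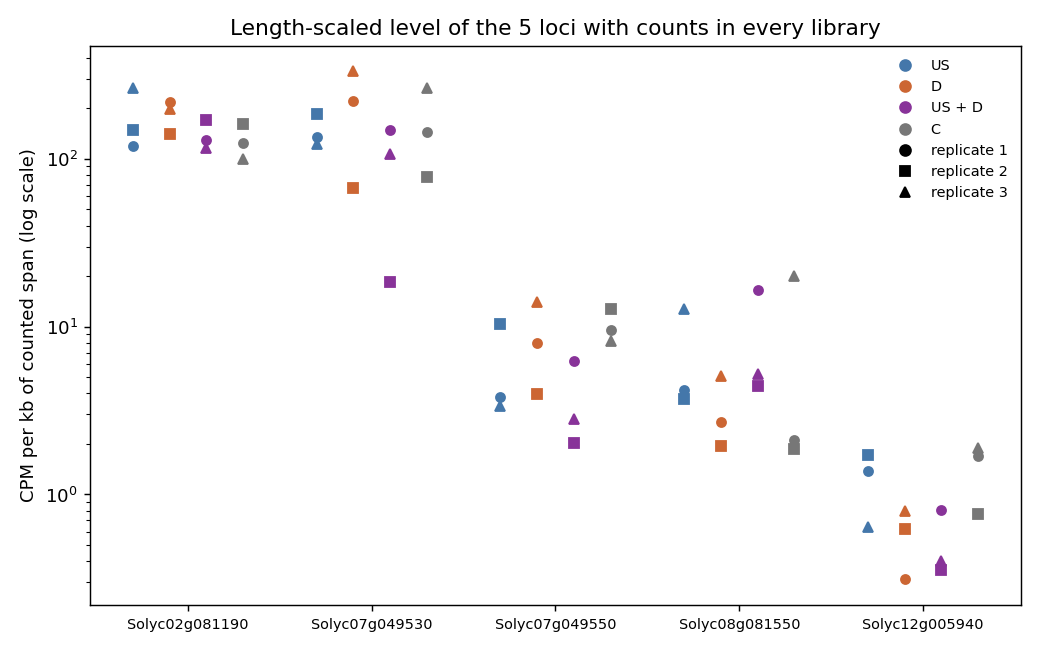
CPM per kb of counted span (log axis) of the 5 loci with counts in every library, 1 point per library, coloured by group (US, D, US + D, C) and shaped by replicate. Solyc02g081190 and Solyc07g049530 lie near 100 CPM per kb in most libraries, with Solyc07g049530 at 18.6 in US + D replicate 2, and Solyc12g005940 lies under 2 CPM per kb.

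The synthase ACS2 had counts in every library except those of D, at a very low level. It had 7, 6 and 3 counts in the US libraries, 0, 0 and 0 counts in the D libraries, 10, 4 and 22 counts in the US + D libraries, and 56, 11 and 35 counts in the C libraries. Thus D was the only group without any ACS2 count, while the other 9 libraries all had at least 3. In CPM this was 0.160, 0.141 and 0.0847 in US, 0 in all of D, 0.271, 0.117 and 0.258 in US + D, and 1.19, 0.101 and 0.332 in C. C replicate 1 stood above all others and C replicate 2 below most libraries of US and US + D. In leaf RNA, fewer expressing cells and less RNA per cell cannot be told apart.

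Against the floor of 3 counts per library, ACS2 in D was at least 6.86-fold lower than in C, and at least 2.74-fold lower without C replicate 1. It was at least 2.73-fold higher in US + D than in D (2.38 to 3.35 with each US + D library left out). Against the US mean, with its counts taken as exact, it was at least 1.63-fold lower in D (1.43 to 1.91 with each US library left out). US replicate 3 was itself at the floor of 3 counts (0.0847 CPM), under the floor of D replicate 2 (0.0868 CPM). D and that library thus cannot be told apart. By edgeR's quasi-likelihood test, adjusted over all tested genes (Benjamini-Hochberg), none of these passed, with adjusted p = 0.235 for D vs. C, 0.166 for US + D vs. D and 0.230 for D vs. US (unadjusted p = 7.7e-04, 0.0031 and 0.0077). ACS2 entered the edgeR tests only through counts in groups other than D. The edgeR p-values of comparisons with D, and of the interaction below, do not take this into account. DESeq2, the tool of the study's methods, called ACS2 in D vs. C (adjusted p = 0.00196) and in US + D vs. D (adjusted p = 0.0158), but not in D vs. US (adjusted p = 0.0588). With each of the 12 libraries left out of DESeq2 in turn, the D vs. C call stood in 12 of 12 fits, with adjusted p between 0.000279 and 0.0357, and the US + D vs. D call in 8 of 12, with adjusted p between 0.00773 and 0.111. In DESeq2, too, ACS2 had counts only in groups other than D, and its p-values do not take this into account. D stayed at 0 counts in each of these fits, which share most of their libraries. They are thus no independent support.

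ACS2 was also the only locus with a DESeq2 call in the test of whether ultrasound acted differently on plants with and without drought. In this interaction, (US + D minus D) minus (US minus C), DESeq2 gave an adjusted p of 0.0156 and edgeR of 0.544 (unadjusted p = 0.00142). The size of this interaction rests on D libraries that all held 0 counts. Without drought, US was lower than C in the mean (0.129 ± 0.039 CPM in US, 0.541 ± 0.574 CPM in C, SD, n = 3 each), but their libraries overlapped. The log2 fold change of US vs. C was -2.01 (SE 0.90, edgeR adjusted p = 0.9998) and -0.73 without C replicate 1. The DESeq2 interaction call stood in 7 of 12 fits with a library left out, and was lost without C replicate 1 (adjusted p = 0.0762). C takes part in all 3 comparisons against it and in the interaction, so these values are not independent of each other.

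**Figure D2:**
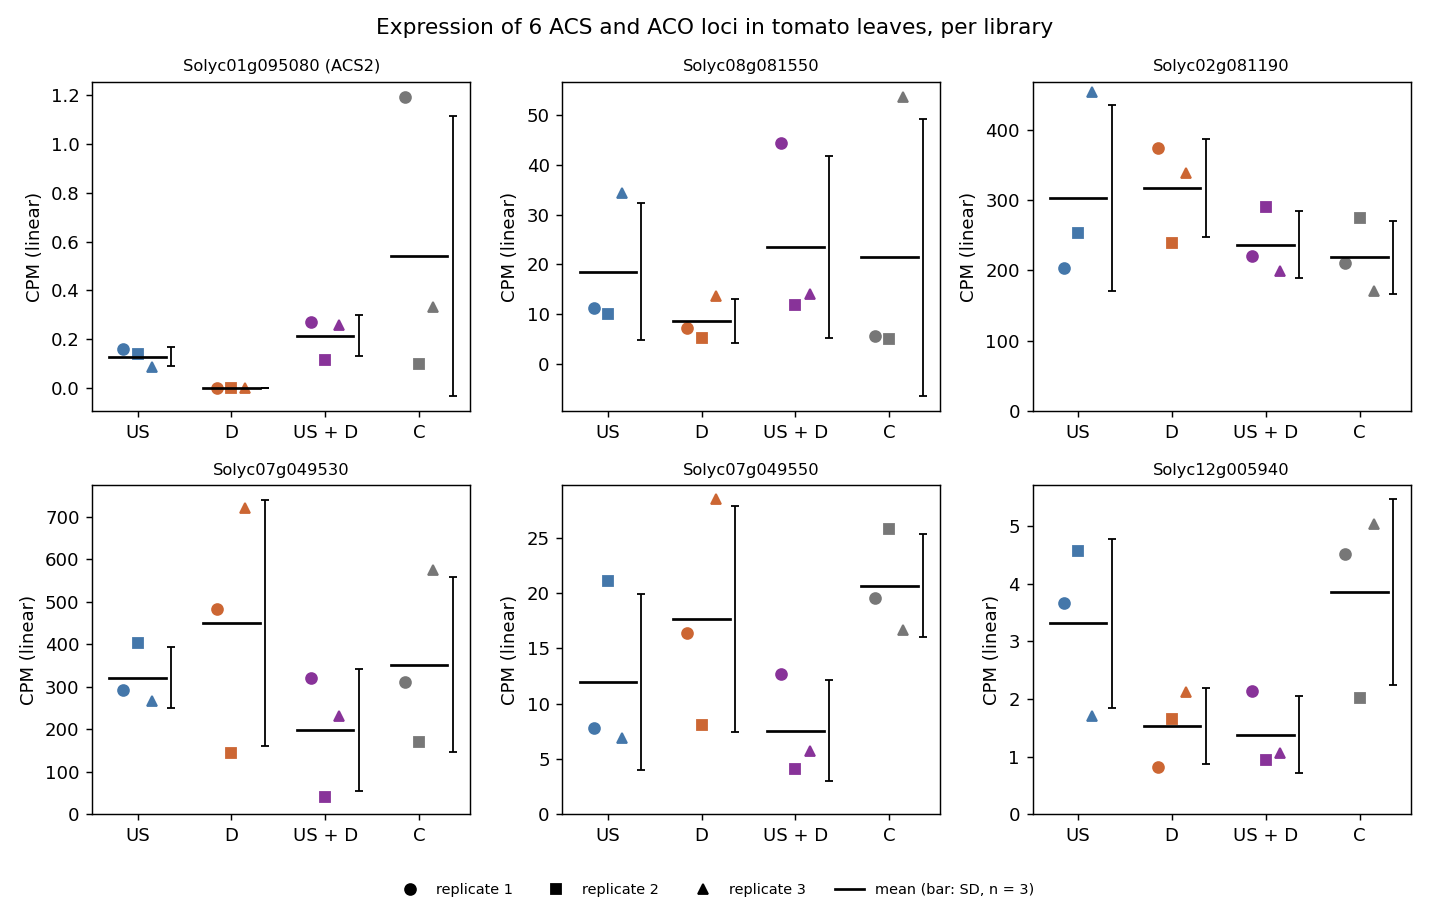
CPM (linear axis) of the 6 tested loci in the 12 libraries, by group (US, D, US + D, C), with the mean as a line and SD (n = 3) as a bar beside the points. ACS2 lies at 0 in the 3 D libraries, and the C mean of ACS2 and Solyc08g081550 is set by 1 library each, with 1.19 and 53.5 CPM.

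The other measured synthase, Solyc08g081550, was more abundant than ACS2 and differed more among replicates than between groups. Its level was 11.3, 9.99 and 34.3 CPM in US, 7.23, 5.24 and 13.6 CPM in D, 44.4, 11.8 and 14.0 CPM with US + D, and 5.65, 5.01 and 53.5 CPM in C. A single library was high in US (replicate 3), in US + D (replicate 1) and in C (replicate 3), and the groups overlapped in every comparison. The D libraries covered the narrowest range. The edgeR log2 fold changes were -0.21 (SE 0.91) for US vs. C, -1.30 (SE 0.93) for D vs. C, 0.13 (SE 0.91) for US + D vs. C and 1.43 (SE 0.93) for US + D vs. D. Without C replicate 3 they became 1.81, 0.72 and 2.13 in the comparisons against C. The direction against C thus depended on that library in US and in D. DESeq2 gave no p-value for this locus.

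C replicate 3 also stood apart in water-deficit genes. The 5 listed water-deficit loci, which include notabilis (an enzyme of abscisic acid synthesis) and a late embryogenesis abundant protein, summed to 711 CPM there, and to 206 and 220 CPM in the other C libraries. The sum reached 1543, 1082 and 690 CPM in the D libraries, 637, 386 and 865 CPM in the US + D libraries, and 499, 252 and 398 CPM in the US libraries. In C replicate 3 the sum thus reached the range of D. There Solyc02g084850 and Solyc10g078770 stayed below every D library (353 and 0.911 CPM, against at least 454 and 2.99 CPM in D). Solyc07g056570 (41.7 CPM) and Solyc04g071610 (235 CPM) lay above every D library, and Solyc08g043170 (80.7 CPM) within the range of D. The part of this in the levels of the synthases was not tested.

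Among the oxidases, Solyc07g049530 was the most abundant, and its replicates spread widely. It reached 293, 403 and 267 CPM in US, 482, 145 and 720 CPM in D, 320, 40.3 and 231 CPM with US + D, and 312, 169 and 575 CPM in C. US + D replicate 2 was the lowest of all libraries and D replicate 3 the highest, a 17.9-fold range. Means were 321 ± 72.4 CPM in US, 449 ± 289 CPM in D, 197 ± 143 CPM in US + D and 352 ± 206 CPM in C (SD, n = 3 each). The largest of its fold changes, -1.19 (log2, SE 0.73) in US + D vs. D, was within this spread (edgeR adjusted p = 0.559).

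Its neighbour on chromosome 7, Solyc07g049550, was lowest in the combined treatment. It had 7.77, 21.1 and 6.89 CPM in US, 16.4, 8.10 and 28.5 CPM in D, 12.7, 4.12 and 5.75 CPM with US + D, and 19.6, 25.8 and 16.7 CPM in C. The 3 US + D libraries were all below the 3 C libraries, whereas US and D overlapped C. The log2 fold change of US + D vs. C was -1.46 (SE 0.57), with an unadjusted p of 0.0280 and an edgeR adjusted p of 0.907, so that it did not pass. In US + D vs. D it was -1.23 (SE 0.57, edgeR adjusted p = 0.413), and DESeq2 called it there only without US + D replicate 1.

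The neighbours were not in a fixed ratio. Solyc07g049530 had between 19.1 and 38.7 times the counts of Solyc07g049550 in US, between 17.8 and 29.5 times in D, between 9.78 and 40.2 times in US + D and between 6.55 and 34.5 times in C. Over the 12 libraries their log2 CPM values had a Pearson r of 0.68, given as a description, since the points share groups and library depth. This was the highest r among the 6 tested loci.

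Solyc12g005940, the oxidase of chromosome 12, was low in both groups that received PEG. It had 3.65, 4.57 and 1.69 CPM in US, 0.826, 1.65 and 2.12 CPM in D, 2.14, 0.936 and 1.07 CPM with US + D, and 4.51, 2.02 and 5.04 CPM in C. The highest library of D and that of US + D lay just above the lowest of C, and US replicate 3 lay within the range of D. Means were 3.31 ± 1.47 CPM in US, 1.53 ± 0.655 CPM in D, 1.38 ± 0.661 CPM in US + D and 3.86 ± 1.61 CPM in C (SD, n = 3 each).

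For Solyc12g005940 the log2 fold change was -1.33 (SE 0.53) in D vs. C, -1.48 (SE 0.53) in US + D vs. C and -1.26 (SE 0.53) in US + D vs. US. The unadjusted p-values were 0.0290, 0.0177 and 0.0364, and none passed after adjustment by edgeR (0.403, 0.817 and 0.9998). The direction of these values held with each library left out. In D vs. C they then ranged between -1.64 and -1.03, in US + D vs. C between -1.91 and -1.24. Between US + D and D the difference was -0.15 (SE 0.53).

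Solyc02g081190, which was given no family, was the steadiest of the tested loci. It had 203, 252 and 453 CPM in US, 374, 240 and 338 CPM in D, 221, 290 and 198 CPM with US + D, and 211, 274 and 171 CPM in C. The groups overlapped in all comparisons, and US replicate 3 was the highest library. Its coefficient of variation over the 12 libraries was 30.9%, against 147% for ACS2, 91.8% for Solyc08g081550 and between 56.4% and 60.2% for the 3 tested oxidases. The log2 fold changes against C were 0.47 (SE 0.32) in US, 0.54 (SE 0.32) in D and 0.11 (SE 0.32) in US + D, with edgeR adjusted p-values of 0.9998, 0.551 and 0.99996.

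**Figure D3:**
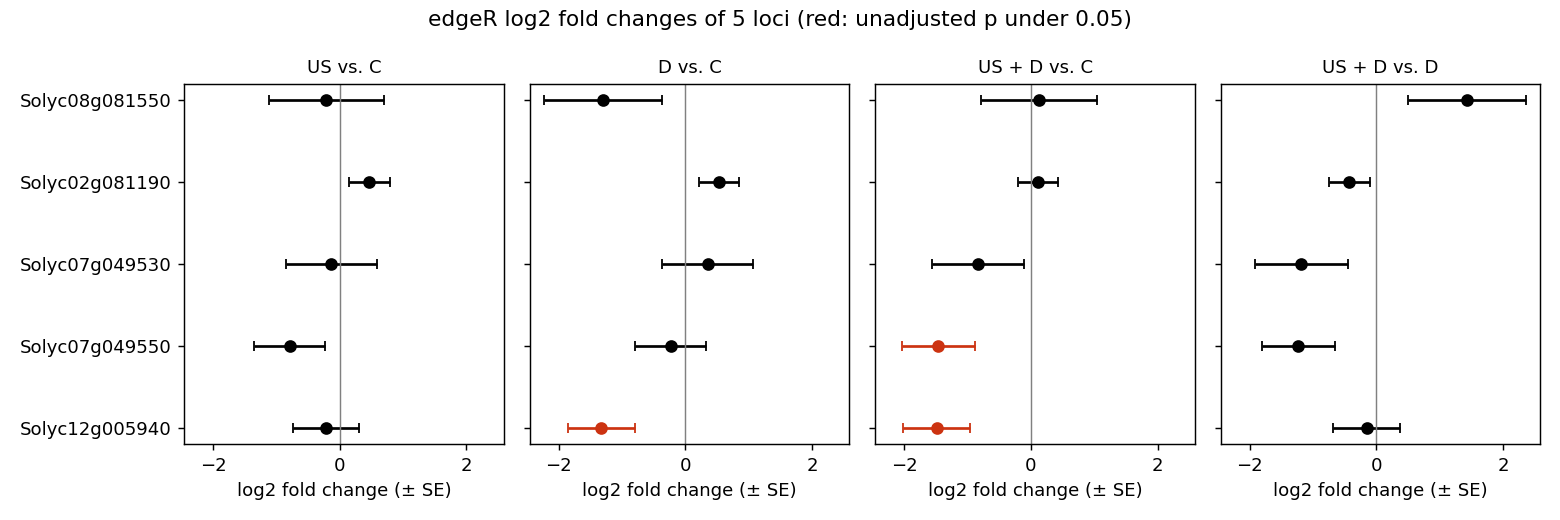
edgeR log2 fold changes with their SE for the 5 tested loci other than ACS2, in US vs. C, D vs. C, US + D vs. C and US + D vs. D. Red points have an unadjusted p under 0.05, i.e., Solyc12g005940 in D vs. C and US + D vs. C, and Solyc07g049550 in US + D vs. C; no point passed after adjustment.

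The counts of loci were read against all genes tested. In US vs. C, edgeR called 0 of the 6 loci (0% of all genes, 0 of 22157), none had an unadjusted p under 0.05 (3.84% of all genes), DESeq2 called none of the 4 to which it gave an adjusted p, ACS2 not among them (0.387% of all genes), and no locus had libraries that did not overlap (6.26% of all genes). The median log2 fold change was -0.21 over the loci and -0.02 over all genes.

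In D vs. C, edgeR called 0 of the 6 loci (0.00451% of all genes), and 2 had an unadjusted p under 0.05 (11.1% of all genes), i.e., ACS2 and Solyc12g005940. DESeq2 called ACS2 alone (1.79% of all genes), which was also the only locus without overlap (19.5% of all genes). In US + D vs. C, edgeR called 0 (0.00451% of all genes), and 2 had an unadjusted p under 0.05 (4.88% of all genes), i.e., Solyc12g005940 and Solyc07g049550. DESeq2 called none there (0.609% of all genes), and Solyc07g049550 was the only locus without overlap (7.64% of all genes). The median log2 fold change of the loci was -0.76 in D vs. C and -1.06 in US + D vs. C, against -0.05 and -0.03 over all genes. The D vs. C median is the same with ACS2 at its bound in place of its fitted value. Both medians come from few loci, whose values moved with single C libraries. Solyc08g081550 became 0.72 in D vs. C without C replicate 3, and ACS2 became 0.0071 in US + D vs. C without C replicate 1. The medians were not computed with a library left out.

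Between the treatments ACS2 and Solyc12g005940 came up again. In US + D vs. D, edgeR called 0 of the 6 loci (0.122% of all genes), and ACS2 was the only one with an unadjusted p under 0.05 (12.6% of all genes), the only DESeq2 call (3.33% of all genes) and the only one without overlap (22.9% of all genes). In D vs. US, edgeR called 0 (0% of all genes) and DESeq2 called 0 (3.1% of all genes), while ACS2 alone had an unadjusted p under 0.05 (13% of all genes) and libraries without overlap (23.2% of all genes). That gap does not hold at the count floor, since US replicate 3 had only 3 ACS2 counts. In US + D vs. US, edgeR called 0 (0% of all genes) and DESeq2 called 0 (0.0434% of all genes), Solyc12g005940 alone had an unadjusted p under 0.05 (3.37% of all genes), and no locus was without overlap (6.97% of all genes). In the interaction, edgeR called 0 (0% of all genes), and ACS2 alone had an unadjusted p under 0.05 (6.42% of all genes) and a DESeq2 call (0.477% of all genes).

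The genes whose log2 CPM followed ACS2 most closely over the 12 libraries were Solyc08g078320 (r = 0.93), Solyc12g150125 (r = 0.90), an alpha/beta-hydrolase family protein, and Solyc08g075320 (r = 0.89). For Solyc07g049550 they were Solyc08g079910 (r = 0.94), Solyc02g061780 (r = 0.91) and Solyc09g011270 (r = 0.90), a cysteine/histidine-rich C1 domain protein. These are the highest values among 22157 genes, given as a description. For ACS2 they depend on the D libraries, where 0 counts leave the log2 CPM to be set by the prior count of 2.

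Around ethylene synthesis, the steps before and after it were measured in 20 further loci, all of which were tested. These lists, too, were chosen with earlier results of these data known. The 4 loci listed as S-adenosylmethionine synthetases, which make the precursor of ACC, gave no call in any of the 7 comparisons. Over all genes, edgeR called 0% to 0.122% and DESeq2 0.0434% to 3.33%. None of the 4 had an unadjusted edgeR p under 0.05 (3.37% to 13% of all genes). All 4 were higher in US + D vs. C and in US + D vs. D, with median log2 fold changes of 0.34 and 0.40, and directions were mixed in the other comparisons. Their summed level lay between 905 and 1320 CPM in the US libraries, between 1068 and 1585 CPM in those of D, between 1026 and 1572 CPM in those of US + D, and between 849 and 1406 CPM in those of C. The precursor step was thus abundant in every group, with overlapping ranges.

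The 7 receptors, which hold ethylene signalling off until they bind the hormone, were in US + D all below C in the mean. No receptor was called by edgeR in any comparison. In US + D vs. C, 0 were higher and 7 lower, 3 of them with an unadjusted p under 0.05 (4.88% of all genes in either direction), and the median log2 fold change was -0.46. ETR5 (Solyc11g006180) had 16.6, 11.1 and 15.1 CPM in US + D, 38.2, 29.8 and 31.9 CPM in D, 29.9, 28.5 and 20.4 CPM in US, and 42.2, 30.5 and 39.8 CPM in C. All US + D libraries thus lay below all others. Libraries did not overlap in 7.64% of all genes in US + D vs. C, 22.9% in US + D vs. D and 6.97% in US + D vs. US. The log2 fold change of US + D was -1.40 against C (SE 0.21, adjusted p = 0.133 by edgeR and 5.8e-06 by DESeq2) and -1.23 against D (SE 0.21, adjusted p = 0.0636 by edgeR and 5.5e-05 by DESeq2). Over the edgeR alternatives the adjusted p against D lay between 0.0496 (without US replicate 3, a library outside this comparison) and 0.281. In D vs. US, ETR5 differed by 0.34 (log2, SE 0.21, edgeR adjusted p = 0.532).

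ETR4 (Solyc06g053710) had 14.0, 9.62 and 9.65 CPM in US + D, against 22.6, 20.1 and 25.6 CPM in C. These did not overlap (7.64% of all genes), and the log2 fold change was -1.04 (SE 0.21, adjusted p = 0.324 by edgeR and 0.00165 by DESeq2). ETR4 averaged 14.1 ± 2.25 CPM in US and 14.9 ± 2.27 CPM in D, against 22.8 ± 2.78 CPM in C (SD, n = 3 each), and neither difference passed in edgeR (adjusted p = 0.898 and 0.354).

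Of the 8 downstream signalling loci, none was called by edgeR in any comparison, and DESeq2 called 2 lower in US + D vs. C (0.609% of all genes in either direction), where 3 were lower with an unadjusted edgeR p under 0.05 (4.88% of all genes). EIN3-binding F-box protein 1 (Solyc12g009560), known from Arabidopsis to send the transcription factor EIN3 to degradation, had 86.1, 52.3 and 69.2 CPM in US + D, against 226, 131 and 234 CPM in C. The log2 fold change was -1.51 (SE 0.25, adjusted p = 0.177 by edgeR and 4.6e-05 by DESeq2), and C replicate 2 was the nearest to US + D. It was -0.76 (SE 0.25, edgeR adjusted p = 0.347) in D vs. C and -0.74 (SE 0.25, edgeR adjusted p = 0.261) in US + D vs. D. Solyc07g008250, an F-box protein, had a log2 fold change of -0.82 in US + D vs. C (SE 0.21, adjusted p = 0.486 by edgeR and 0.0377 by DESeq2) and of -0.66 in D vs. C (SE 0.21, edgeR adjusted p = 0.315). In D vs. US, Solyc06g073730 of the same list, which carries no name in the sources used here, had a log2 fold change of -0.73 (SE 0.25, edgeR adjusted p = 0.268).

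The locus named ethylene overproducer-like 1 (Solyc09g065640) is related to a protein known from Arabidopsis to bind ACS enzymes and lead to their degradation, and it was lowest in D. It had 77.2, 74.0 and 89.3 CPM in D, against 127, 123 and 128 CPM in US, 119, 114 and 143 CPM in US + D, and 146, 99.1 and 116 CPM in C. No D library reached any other group. Libraries did not overlap in 19.5% of all genes in D vs. C, 22.9% in US + D vs. D and 23.2% in D vs. US. The log2 fold change was -0.59 in D vs. C (SE 0.17, adjusted p = 0.294 by edgeR and 0.0554 by DESeq2), 0.64 in US + D vs. D (SE 0.17, adjusted p = 0.164 and 0.0146) and -0.65 in D vs. US (SE 0.17, adjusted p = 0.172 and 0.0170). ACS2 and this gene were thus both lowest in D, on levels that differ by orders of magnitude. These are RNA levels, whereas that degradation concerns protein, and a link between them was not tested.

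**Figure D4:**
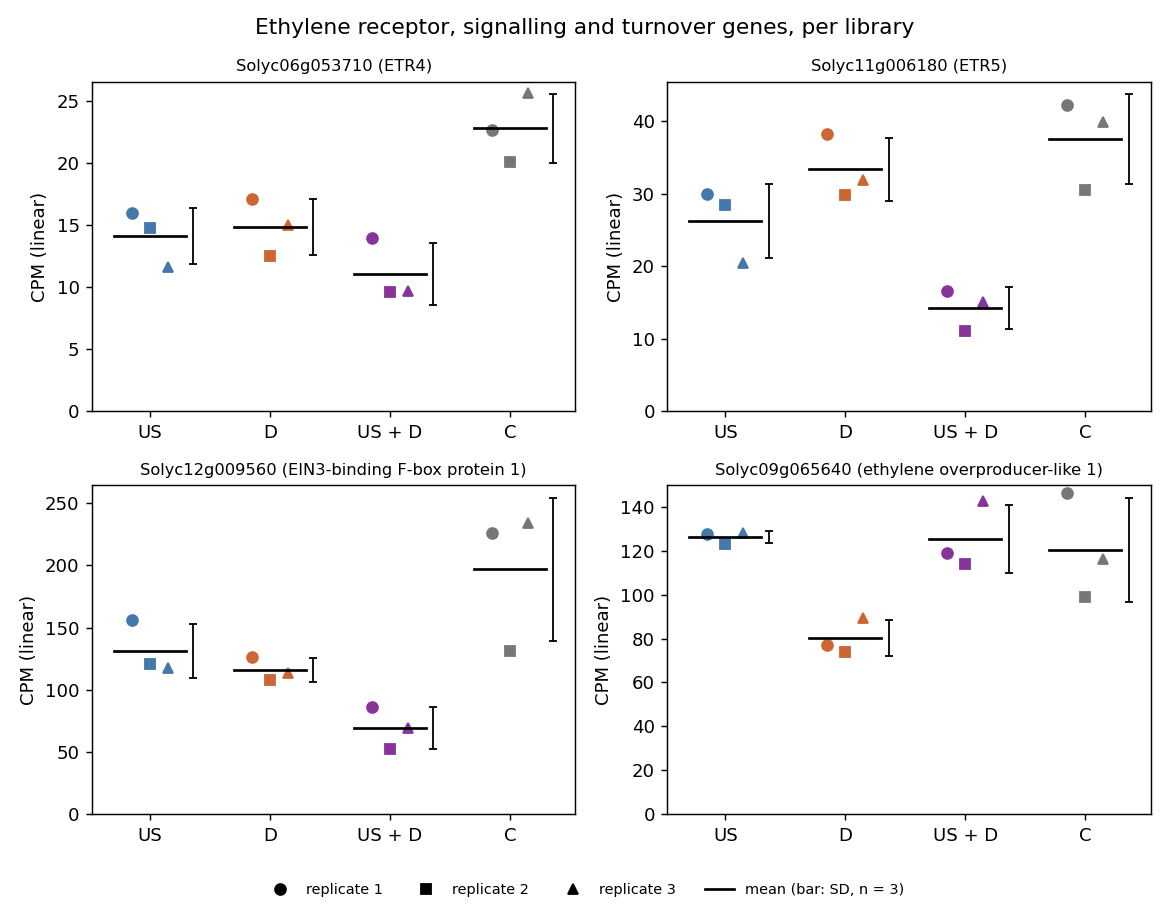
CPM (linear axis) of ETR4, ETR5, EIN3-binding F-box protein 1 and ethylene overproducer-like 1 in the 12 libraries, by group (US, D, US + D, C), with the mean as a line and SD (n = 3) as a bar. The US + D libraries of ETR5 lie between 11.1 and 16.6 CPM, below all others, and the D libraries of ethylene overproducer-like 1 lie between 74.0 and 89.3 CPM, below all others.

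Wounding is known to move ACS and ACO genes, so the 4 listed wound-responsive loci, among them protease inhibitor I and proteinase inhibitor 1, were summed beside them. The sum was 57.1, 1763 and 1039 CPM in US + D, 99.4, 292 and 354 CPM in D, 128, 113 and 346 CPM in US, and 20.9, 95.5 and 38.8 CPM in C. Of the 3 tested loci of this list, DESeq2 called 3 higher in US + D vs. C (0.609% of all genes in either direction), and edgeR called 0 (0.00451% of all genes), with 3 at an unadjusted p under 0.05 (4.88% of all genes). US + D replicate 1 had the lowest wound sum of its group and the highest levels of Solyc08g081550, Solyc07g049530, Solyc07g049550 and Solyc12g005940, and replicate 2, with the highest wound sum, had the lowest levels of the same 4 loci. In D, replicate 3 had both the highest wound sum and the highest levels of the same 4 loci (13.6, 720, 28.5 and 2.12 CPM). US and C were mixed. In US, replicate 3 had the highest wound sum, the highest level of Solyc08g081550 and the lowest levels of the other loci of these 4. In C, replicate 2 had the highest wound sum, the highest level of Solyc07g049550 and the lowest levels of the other loci of these 4. The leaf sum was 5812, 29212 and 12872 CPM in the US + D libraries, lowest in replicate 1 and highest in replicate 2 as the wound sum was. The part of either sum in the levels of the loci was not tested.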

How the data were processed

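Per the study's methods, the authors trimmed reads with fastp, aligned them to SL4.0 with Hisat2, counted them on ITAG4.0 genes with FeatureCounts and called genes with DESeq2. The deposited table holds raw counts per gene (whole numbers, not normalized) for the 12 libraries, and 0 per-sample columns were left unassigned. The Length column equals end minus start plus 1 in 100% of genes, so levels per kb refer to spans with introns. The strand setting is not given in the sources used here.

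The tests were run with edgeR 4.0.16 under R 4.3.3 (filterByExpr, TMM, quasi-likelihood fit with 1 mean per group over all 12 libraries, Benjamini-Hochberg adjustment over 22157 genes). Loci were called at an absolute log2 fold change over 0.58 with an adjusted p under 0.05. Alternatives were DESeq2 1.42.0, RLE factors, no filter, at least 10 counts in at least 6 libraries, adjusted p alone, a replicate block, a fit to the compared groups alone, and leave-one-out fits of the 12 libraries. Leaving libraries out of DESeq2 was chosen after seeing the data. The script was tested on simulated data. An exact permutation test of 3 against 3 cannot go below a two-sided p of 0.1, so single loci were tested in the model only. The p-values measure the spread between these libraries.

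The loci and lists were chosen with earlier results of these data known. Named were all 10 loci, the 3 pathway genes with the smallest edgeR p in D vs. US, D vs. C and US + D vs. D, pathway genes called by either tool, and the 3 genes most like the most variable ACS and ACO locus (range of group means of log2 CPM, prior count 2).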

Additional observations from a re-analysis of the deposited data

How the results depend on the processing

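No ACS or ACO locus was called by edgeR under any alternative, i.e., another normalization or filter, the adjusted p alone, only the groups compared, the replicate block, or any library left out. ACS2 was not tested with at least 10 counts in at least 6 libraries, nor with only the groups compared except in US + D vs. C, so these alternatives do not bear on it elsewhere. DESeq2 called 1 locus (ACS2) in D vs. C, 1 in US + D vs. D and 1 in the interaction. With each library left out of DESeq2, it called 1 to 1 locus in D vs. C, 0 to 2 in US + D vs. D, 0 to 1 in D vs. US and 0 to 1 in the interaction. Over all genes it then called between 99 and 560 in D vs. C, where it called 426 with all libraries and edgeR 1. The all-gene calls lay between 264 and 952 in US + D vs. D, 194 and 1013 in D vs. US, and 39 and 230 in the interaction. The US + D vs. D call of ACS2 was lost without any one of the D libraries or without US + D replicate 3, and the interaction call without any one of the D libraries, C replicate 1 or US + D replicate 3. The cause of the difference between the tools was not tested.

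Of 709 alternative fold changes, 678 kept their direction and side of the threshold, 11 passed it and 20 reversed, in 10 results whose libraries overlapped. With a library left out, the log2 fold change of Solyc08g081550 ranged between -1.01 and 1.81 in US vs. C, -1.77 and 0.72 in D vs. C, and -0.69 and 2.13 in US + D vs. C. That of Solyc07g049530 ranged between -0.47 and 0.41 in US vs. C and between -0.14 and 0.91 in D vs. C. That of Solyc12g005940 ranged between -0.53 and 0.094 in US vs. C and between -0.60 and 0.13 in US + D vs. D. In US + D vs. C that of ACS2 ranged between -1.78 and 0.0071 and that of Solyc02g081190 between -0.049 and 0.31, and in D vs. C that of Solyc07g049550 between -0.73 and 0.12.

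Whether the replicate numbers pair the samples was not settled by these data. Deviations of same-numbered libraries correlated between -0.40 and 0.75, over 0.1 in 9 of 18 pairs. Those of differently numbered libraries correlated between -0.64 and 0.55, over 0.1 in 12 of 36 pairs. A library correlated best with its own number in 16 of 36 cases. With the replicate block edgeR called 0 of the loci in every comparison, and the log2 fold change in US vs. C reversed to 0.19 for Solyc08g081550 and to 0.27 for Solyc07g049530.

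Depth limits ACS2, whose libraries hold between 0 and 56 counts, and a level under 3 counts in D was not detectable. Solyc05g050010 and Solyc07g026650 had too few counts to be tested in the edgeR fit.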

Other observations

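Solyc09g089580, the other locus of the fruit ripening list, named a 2-oxoglutarate and Fe(II)-dependent oxygenase family protein, the superfamily to which ACC oxidases belong, was highest in D. The list gives it as E8, and RefSeq holds an ACC oxidase of chromosome 9, ACO3, with the synonym E8/Sl27DOX. Whether both are the same gene was not settled, since RefSeq holds no Solyc identifiers. Solyc09g089580 had 96.8, 72.4 and 90.6 CPM in D, against 57.9, 48.4 and 41.1 CPM in US, 65.4, 20.7 and 42.3 CPM in US + D, and 44.9, 29.3 and 65.7 CPM in C, so that no D library overlapped another group. Libraries did not overlap in 19.5% of all genes in D vs. C, 22.9% in US + D vs. D and 23.2% in D vs. US. The log2 fold change was 0.89 in D vs. C (SE 0.38, edgeR adjusted p = 0.430) and -1.02 in US + D vs. D (SE 0.39, edgeR adjusted p = 0.310), and neither passed. It was chosen after its values were seen.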
